A study of Bos grunniens with 12 samples.

Results

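The genes described here are those annotated to spermatogenesis that belong neither to the acrosome nor to the families best known from the sperm tail, from the meiotic axis and from other well studied groups. They were found in the expression table of the yak testis by the Gene Ontology (GO) term spermatogenesis, leaving out genes with the term acrosomal vesicle, genes whose symbol starts with ADAM, CATSPER, CFAP, DNAH, DNAI, SPAG, TSSK, KIF, HSPA, DNAJ, CCN, CDK, TDRD, PIWIL, ODF, UBE2 or SLC, and 15 single symbols (SYCP1, SYCP2, SYCP3, DMC1, SPO11, HORMAD1, MEIOB, MLH3, TNP1, HMGB4, KIT, ZBTB16, DAZL, CREM and RFX2). Of the 20953 genes of the table, 234 carried the term, 28 of these were left out, and 206 remained as members. The rule reads terms and symbols and no measured value, although it was written with earlier results of these data known.

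Testis tissue was taken at 1.5 years from 3 yaks, the Y group, and at 5 years from another 3, the M group, and every animal gave an input library and an m6A immunoprecipitated library. Tissue of the Y group was obtained by surgical castration and that of the M group from killed animals, so age and way of collection cannot be told apart. No treatment or gene change was made in either group. The libraries were grouped by the ages in their titles, which go with the methods, while a further label on developmental stage says the reverse for each sample. The question was how the testis differs before and after sexual maturity.

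Spermatogenesis takes a dividing spermatogonium through meiosis to a round spermatid, which then builds a condensed head, a mitochondrial midpiece and a tail while most of its cytoplasm is removed. Much of this work falls in the spermatid, where histones are exchanged for smaller basic proteins, the manchette shapes the head, and many messengers are stored before they are translated. Sertoli cells surround and feed the germ cells, and they take up the cytoplasm and the dying cells that are shed. Messenger RNA in testis also carries m6A, a methyl mark written by an enzyme complex that includes METTL14.

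Expression was given as FPKM (fragments of a gene per kilobase of its length, relative to the mapped fragments of that library). A member was tested if its mean FPKM over the 6 input libraries was at least 0.5, which 170 members were. The other 36 were not tested, 14 of them listed at 0 in every library and 22 above 0 but under the limit. Differences are given on the scale of log2(FPKM + 0.1), M group minus Y group, with the standard error (SE) of limma, and 3 libraries stand on each side. A gene is called lower or higher here if its unadjusted limma p was under 0.05 and its difference was more than 1 on the log2 scale. No member passed 0.05 after Benjamini-Hochberg adjustment over all 12437 genes tested (background 0.0322%), and the lowest adjusted p of a member was 0.154. All calls below are therefore unadjusted.

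More members were called lower than higher in the 5-year testes. Of the 170 members tested, 31 were called lower in the M group, against 5.25% of all genes tested, which makes 18.2% of the members. In the other direction 1 member was called higher, against 4.01% of all genes. The median difference of the members was -0.23 and that of all genes 0.04, and 118 members (69.4%) had a negative difference, against 46.5% of all genes. At p under 0.05 with no limit on size, 44 members were lower (background 10.9%) and 12 were higher (background 14.2%). All 3 M values lay below all 3 Y values in 52 members (background 13.9%) and above them in 18 (background 19.8%). In whole tissue, fewer cells of a type and less RNA per cell cannot be told apart.

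**Figure D1:**
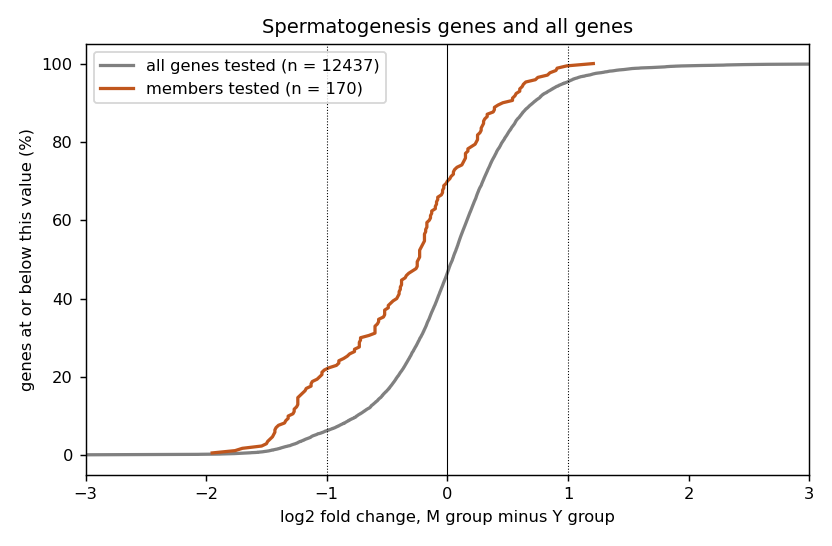
Cumulative share of genes (%) by log2 fold change, M group minus Y group, for the 170 members tested (orange) and all 12437 genes tested (grey); dotted lines mark a difference of 1 in either direction. The curve of the members lies above that of all genes on the side of lower values, with medians of -0.23 and 0.04.

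The M libraries were not alike, and the size of the differences followed this. The median difference of the members from the Y mean was -0.45 in M replicate 1, -0.10 in M replicate 2 and -0.24 in M replicate 3, and between -0.04 and 0.06 in the Y libraries. M replicate 1 held the lowest of the 6 values in 93 members (54.7%), against 35.5% of all genes. The order replicate 1, replicate 3, replicate 2 from low to high was seen in 41.2% of the members and in 28.2% of all genes. The coefficient of variation had a median of 11.3% in the Y group and of 30.1% in the M group, and it was larger in the M group for 145 members (85.3%, against 73.2% of all genes). Together the members made up 3.1% to 3.2% of the summed FPKM in the Y libraries, 1.83% in M replicate 1, 2.81% in M replicate 2 and 2.5% in M replicate 3. Relative depth was read from the value of 1 fragment in low genes and was between 0.99 and 1.09 of that of Y replicate 1. Only low genes with values near those of Y replicate 1 were used, so a large difference in depth could not have shown.

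Without M replicate 1 the calls past both limits dropped to 3 members (background 1.32%), while 43 members were lower at p under 0.05 (background 8.56%), 36 of them among the 44 of the full comparison, with a median of -0.14. On the higher side 1 member was called (background 1.99%) and 10 had p under 0.05 (background 9.97%). Of the 31 called members, all 31 kept a negative difference without that library, 24 of them with p under 0.05, and their median went from -1.24 to -0.80. The remaining libraries were also used to call the 31, so this is no independent check. Leaving out M replicate 2, the M library nearest to the Y group, gave 44 members called lower (background 8.98%), and 50 members then had an adjusted limma p under 0.05 (background 20.3%), 25 of them among the 31. Leaving out Y replicate 1 gave 12 members called lower (background 3.08%) and leaving out Y replicate 3 gave 13 (background 3.1%).

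Markers of some cell types also differed between the groups, in both directions. They were summed over list genes whose symbol stands on 1 identifier. The sum over TSSK6, ODF1 and GAPDHS, 3 of 8 listed genes of the elongating spermatid, was 300 to 331 FPKM in the Y group and 55.5, 186 and 167 FPKM in M replicates 1 to 3. ACRV1 and SPACA1, 2 of 8 for round spermatids, summed to 63.1 to 96.2 FPKM in the Y group and to 18.6, 75.9 and 24.5 FPKM in the M group. Spermatocyte markers (6 of 9 genes) were near level, at 76.3 to 80.5 against 64.7 to 79.9 FPKM. Of the somatic lists, 5 of 9 Sertoli cell genes, SOX9 among them, summed to 67.8 to 78.9 FPKM in the Y group and to 239, 97.8 and 122 FPKM in the M group. INHA made up most of that sum (211 FPKM in M replicate 1), and the differences of the 5 genes lay between 0.60 and 0.98. The sum over 8 of 9 peritubular and stromal genes was 31.1 to 35.4 against 76.7, 47.3 and 65.4 FPKM. Macrophage markers (5 of 7 genes) stood at 7.53 to 13.8 against 35.4, 14.7 and 22.4 FPKM, a sum made up mostly of C1QA and C1QB. CD163 differed the other way (-1.16) and CD68 was level (0.00). Further, 3 of 7 spermatogonial genes were at 32.4 to 38.9 against 67.8, 37.3 and 42.5 FPKM. This sum was made up mostly of DMRT1 (64.8 FPKM in M replicate 1), and ZBTB16 and GFRA1 were at 1.69 FPKM or less in every library. STAR, 1 of 6 Leydig cell genes, was at 8.6 to 15.4 against 4.83 to 6.3 FPKM, 3 of 5 endothelial genes were at 5.86 to 8.28 against 7.01 to 9.95 FPKM, and 0 of 4 erythroid genes could be counted. No marker that was counted was at 0 in every library, and the part of cell makeup in the differences of the members was not tested. The libraries titled as 1.5 years thus hold spermatid messengers, although the methods place these animals before sexual maturity. Elongating spermatid markers were higher in each of them than in any library titled as 5 years, while for round spermatids M replicate 2 lay above Y replicate 2. Every direction given here follows the titles and would turn if the ages had been exchanged, which was not tested.

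**Figure D2:**
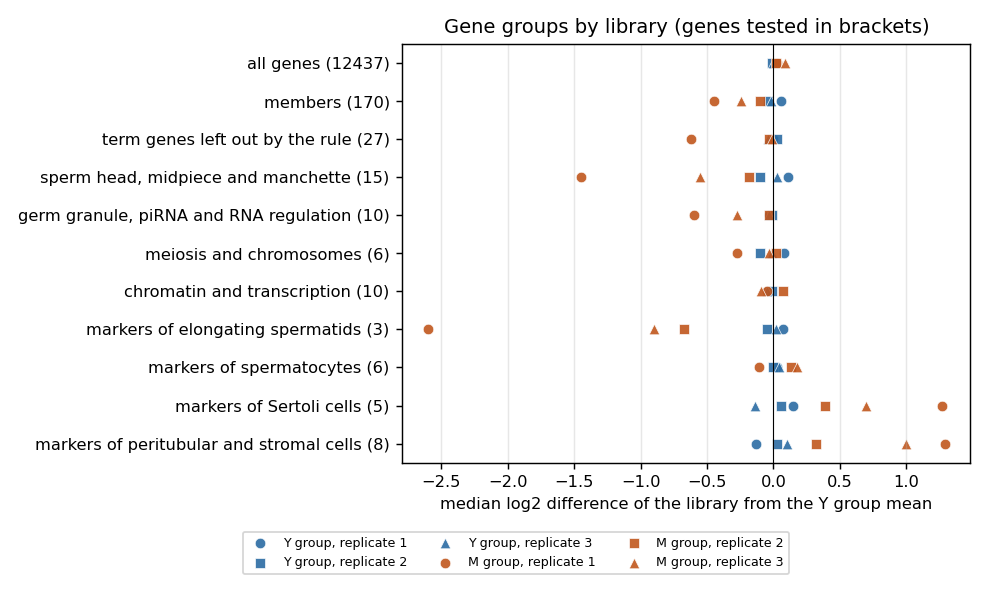
Median log2 difference of each input library from the Y group mean for gene groups (genes tested in brackets); blue marks are Y libraries and orange marks M libraries, with 1 shape per replicate number. M replicate 1 lies farthest to the left for the members (-0.45), the sperm head list (-1.45) and the elongating spermatid markers (-2.60), and to the right for Sertoli cell markers (1.27).

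A limit of the table bears on the names. In it 11160 of the 20953 genes carry a symbol that stands on several identifiers, among them 115 of the 206 members, and the GO terms of such genes often have nothing to do with the symbol. TLR7, the name of an immune receptor, stands on 46 identifiers, 7 of them members that are annotated to nucleosome assembly. For 91 members, 84 of them tested, the symbol stands on 1 identifier, and gene functions are given for these alone. The rest are given by identifier, with the symbol they are listed under and their GO terms. Among members with a symbol of their own 9 of 84 (10.7%) were called lower, and among those with a shared symbol 22 of 86 (25.6%), against 5.25% of all genes. The medians were -0.22 and -0.31. The difference between the kinds was not tested. The rule itself also reads symbols, and of the 21 genes left out by symbol 8 had a shared one.

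Spermatid genes with a symbol of their own came first in size. The list of genes of the sperm head, midpiece and manchette had 15 members tested, with a median of -0.73. Of these, 4 were called lower (26.7%, background 5.25%), 5 were lower at p under 0.05 (33.3%, background 10.9%) and none was higher (background 14.2%). In 8 of the 15 all M values lay below all Y values (background 13.9%), and 14 of the 15 differences were negative (background 46.5%). By library the median was -1.45, -0.18 and -0.55 in M replicates 1 to 3. Without M replicate 1 no member of the list passed both limits (background 1.32%), 4 were lower at p under 0.05 (background 8.56%), and the median was -0.35. Over all settings tried the median of this list lay between -0.96 and -0.35.

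SPEM1, a protein needed to remove the cytoplasm of the maturing spermatid, was at 126, 107 and 107 FPKM in the Y group and at 19.1, 61.9 and 65.6 FPKM in the M group. M replicate 1 was far below the other M libraries, and all 3 M values lay below the Y values. The difference was -1.40 (SE 0.46, adjusted p = 0.157 by limma), and without M replicate 1 it was -0.83. SPATA19, a mitochondrial protein of the midpiece, had the largest difference of the list, from 10.8, 9.54 and 12.1 FPKM to 1.9, 6.63 and 4.72 FPKM. Its groups did not overlap, and its difference of -1.44 (SE 0.42, adjusted p = 0.154) was -0.93 without M replicate 1.

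GPX4, the selenium peroxidase that also builds the capsule of the sperm mitochondria, was the member with the highest level. It stood at 579, 571 and 590 FPKM in the Y group, where the libraries were close to each other, and at 224, 484 and 395 FPKM in the M group. The difference was -0.73 (SE 0.31, adjusted p = 0.197), under the limit on size. SPATA20, a thioredoxin-like protein of spermatids, went from 77, 70.9 and 66.7 FPKM to 17.5, 56.8 and 35 FPKM, with no overlap and a difference of -1.13 (SE 0.39). SPATA46, a protein of the nuclear envelope that takes part in shaping the head, was at 42.3, 31.8 and 38.2 against 11.3, 32.7 and 15.9 FPKM, and there M replicate 2 lay above the lowest Y library. The rest of the list had smaller or more variable differences, from -0.92 to 0.02.

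Members outside the lists but with a symbol of their own held 5 further calls among 37 tested (13.5%, background 5.25%). The median of these 37 was -0.09, near that of all genes. CABS1, a calcium-binding protein of the spermatid tail, was at 97.2, 84 and 77.5 FPKM in the Y group and at 15.2, 48.6 and 54.8 FPKM in the M group (difference -1.32, SE 0.46). CCIN, the calicin of the cytoskeletal calyx behind the sperm nucleus, was at 89.3, 83.1 and 99.6 against 22.6, 73.5 and 42.3 FPKM (difference -1.13, SE 0.39). ATP1A4, the sodium pump subunit of sperm, was at 34, 26.8 and 32.7 against 6.15, 24 and 14.1 FPKM (difference -1.27, SE 0.45). In all of these the M values lay below the Y values, and M replicate 1 was the lowest. THEG, a spermatid protein, stood at 8.63, 6.05 and 6.47 against 1.47, 5.03 and 2.95 FPKM and likewise did not overlap. TBATA, named after thymus, brain and testis, was at 7.84, 4.83 and 6.22 against 1.01, 5.17 and 1.97 FPKM, with M replicate 2 above Y replicate 2. Their differences were -1.28 and -1.45. The adjusted p of all 31 calls lay between 0.154 and 0.191.

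**Figure D3:**
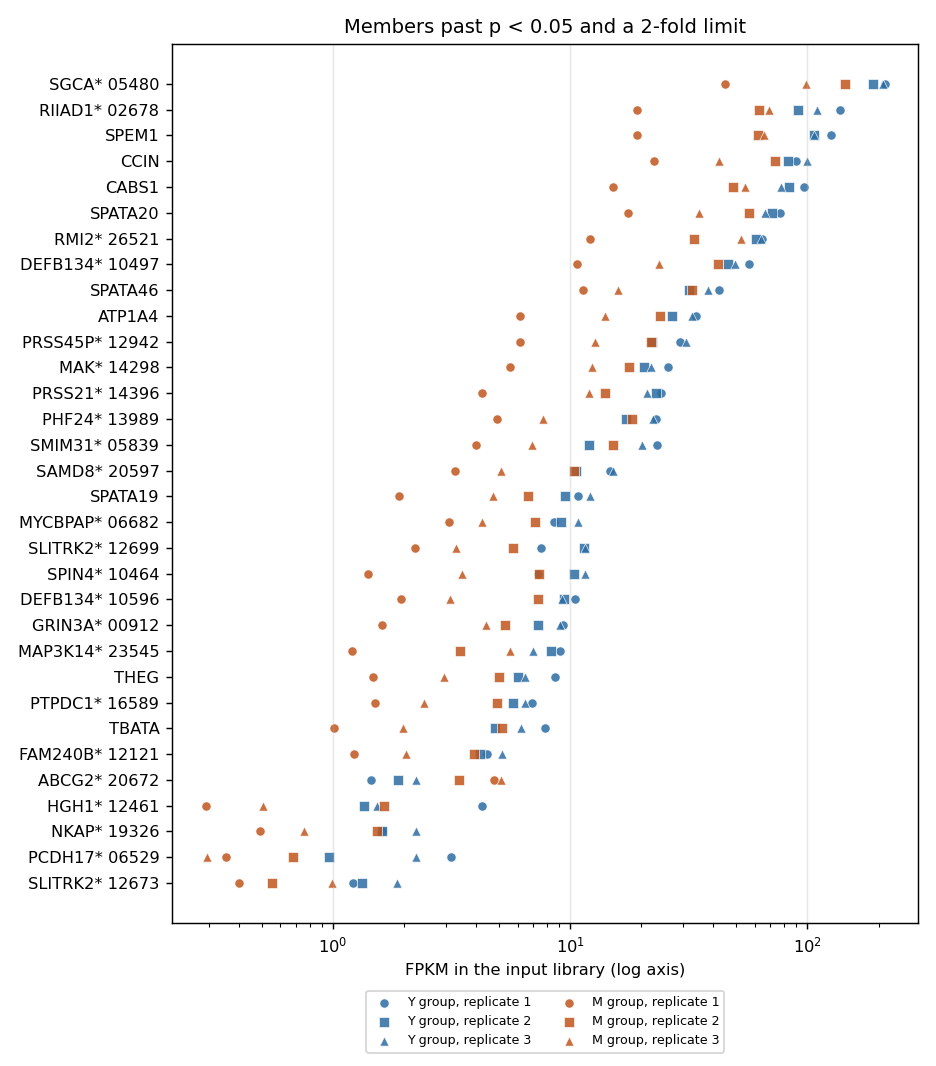
FPKM (log axis) in each of the 6 input libraries for the 32 members past both limits, ordered by mean level; an asterisk marks a symbol on several identifiers, followed by the last digits of the identifier. In 30 of the 31 members called lower, M replicate 1 (orange circle) is the lowest library, and ABCG2* is the single member called higher.

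The germ granule and RNA list, 10 members, held no call past both limits, 2 members lower at p under 0.05 (20%, background 10.9%) and a median of -0.25. GTSF1, a factor of the piRNA pathway that silences transposons, was at 121, 106 and 110 FPKM in the Y group and at 52.7, 100 and 75.4 FPKM in the M group. Its groups were apart by a small step, and the difference was -0.60 (SE 0.25, adjusted p = 0.191). CELF3, an RNA-binding protein, was at 2.46, 3.02 and 3.66 against 0.949, 2.58 and 1.8 FPKM, with overlap (-0.83, SE 0.35). YBX3, a Y-box protein that binds stored messengers in germ cells, was among the most abundant members at 213, 240 and 210 against 141, 259 and 181 FPKM. M replicate 2 was the highest of its 6 libraries, and the difference of -0.23 (SE 0.25, adjusted p = 0.563) was within the spread. The median of the list without M replicate 1 was -0.08.

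The meiosis list, without the symbols that the rule leaves out, had a small median difference. None of the 6 tested that have a symbol of their own passed p of 0.05 (background 25.1%), and their differences ran from -0.41 to 0.63. The median was -0.14, or 0.00 without M replicate 1. BAG6, a chaperone that stabilises the meiotic heat shock protein, was at 127, 110 and 117 FPKM in the Y group and at 70.8, 107 and 91.8 FPKM in the M group. The groups did not overlap, by a margin of 110 against 107 FPKM, and the difference was -0.41 (SE 0.20, adjusted p = 0.233). TEX15 is listed under a symbol on 2 identifiers (here ENSBGRG00000024980, with terms for synapsis and recombination repair), at 25.6, 21.5 and 25.1 against 13.8, 20.8 and 17.2 FPKM and a difference of -0.49 (SE 0.19, adjusted p = 0.174). It is on the meiosis list but not among the 6 above, and its unadjusted limma p was under 0.05.

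Smaller lists gave single values. POC1A, a centriole protein, was tight within the Y group at 24.8, 24.9 and 25.1 FPKM and stood at 14.6, 19.8 and 18.3 FPKM in the M group. Its difference of -0.52 (SE 0.16, adjusted p = 0.154) was smaller than any called difference, with a small spread. TESK1, a testis kinase that acts on actin through cofilin, was at 57.8, 48.5 and 51.6 against 17.3, 34.4 and 37.5 FPKM (-0.90, SE 0.30, adjusted p = 0.159). For both, every M value was below every Y value. PRDX4, a peroxidase of the endoplasmic reticulum, overlapped between groups with a difference of -0.13 (SE 0.18).

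Of 10 chromatin and transcription genes tested, 1 was lower and 2 were higher at p under 0.05, shares near those of all genes (10.9% and 14.2%), and none was past the limit on size. SOX9, the transcription factor that defines Sertoli cells, was at 7.25, 8.38 and 6.8 FPKM in the Y group and at 13.8, 8.73 and 12.2 FPKM in the M group. The groups were apart, but M replicate 2 lay just above the highest Y library. The difference was 0.60 (SE 0.20, adjusted p = 0.16). It moved with the other Sertoli cell markers given above.

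AXL had the smallest p of all members. It encodes a receptor kinase by which Sertoli cells recognise dying germ cells, and it stood at 2.4, 2.01 and 2.36 FPKM in the Y group and at 4.93, 3.84 and 4.12 FPKM in the M group. Its groups were clearly apart, with a difference of 0.90 (SE 0.17, adjusted p = 0.154), and 0.79 without M replicate 1. Among the higher members, the single one past both limits was ENSBGRG00000020672, listed under ABCG2 and annotated to messenger splicing and the spliceosome. It was at 1.44, 1.87 and 2.23 against 4.77, 3.39 and 5.12 FPKM (difference 1.21, SE 0.23, adjusted p = 0.154).

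Others on the higher side had low levels. The gene listed under PATZ1 (ENSBGRG00000008657, DNA-binding terms) was at 0.714, 0.912 and 0.961 against 2.54, 1.37 and 1.66 FPKM, a difference of 0.99 (SE 0.28). ENSBGRG00000008498, listed under TLR7 with nucleosome assembly and gonadal mesoderm terms, was at 0.766, 0.923 and 0.81 against 1.62, 1.87 and 1.49 FPKM, and ENSBGRG00000013045, listed under N4BP1 with ubiquitin transferase terms, at 1.17, 1.5 and 1.18 against 2.11, 2 and 1.94 FPKM. In each of these the groups did not overlap, and for the last the M libraries were within a narrow range.

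**Figure D4:**
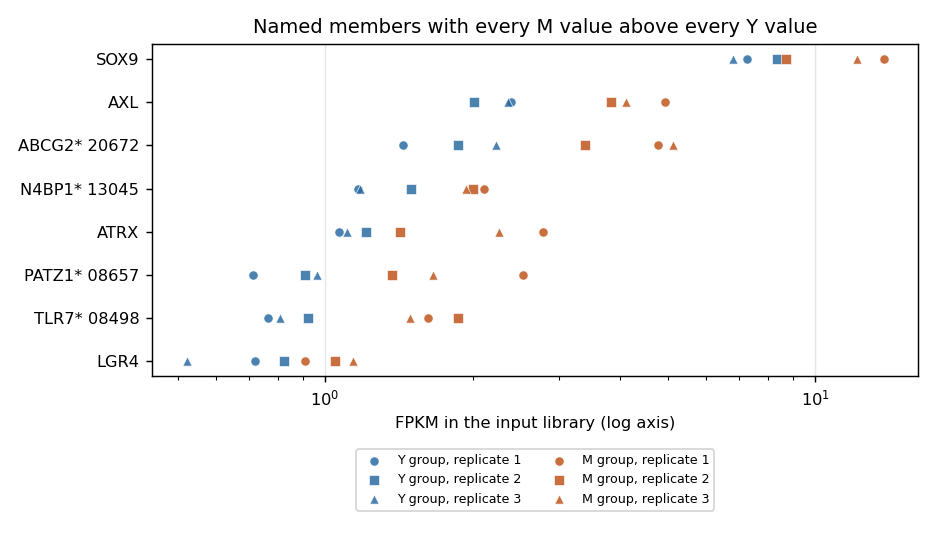
FPKM (log axis) in each input library for the 8 named members whose 3 M values all lie above their 3 Y values; an asterisk marks a symbol on several identifiers. AXL runs from 2.01 to 2.4 FPKM in the Y group and from 3.84 to 4.93 in the M group, and for SOX9 the gap between the groups is small (8.38 and 8.73).

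Among the members with a shared symbol, some with chromatin terms were abundant. ENSBGRG00000005480, listed under SGCA and annotated to nucleosome, male germ cell nucleus and nucleosome positioning, was at 212, 190 and 208 FPKM in the Y group and at 45.1, 144 and 98.4 FPKM in the M group. No library overlapped, and the difference was -1.24 (SE 0.40, adjusted p = 0.157). ENSBGRG00000026521, listed under RMI2 with terms for the nuclear nucleosome and the exchange of chromosomal proteins in spermatogenesis, was at 64.3, 60.9 and 63.6 against 12.1, 33.3 and 52.6 FPKM (-1.18, SE 0.48). Which gene the identifier stands for was not established.

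The members with the GO term nucleosome numbered 7 tested, 3 of them called lower (42.9%, background 5.25%), with a median of -1.24, or -0.77 without M replicate 1. This and the following groups of GO terms were chosen after the values were seen. Of 6 members with 1 identical set of terms (nucleosome, DNA binding, nucleus, development, spermatogenesis, differentiation), 4 were tested and all 4 had negative differences. ENSBGRG00000012699, listed under SLITRK2, was at 7.53, 11.4 and 11.5 against 2.22, 5.73 and 3.3 FPKM and had the smallest p of the lower calls (-1.49, SE 0.35, adjusted p = 0.154). It stayed past both limits without M replicate 1, at -1.17, as did the members listed under PCDH17 and, of the DEFB134 pair, ENSBGRG00000010596 (-1.01). ENSBGRG00000012673, under the same symbol, was low at 1.21, 1.32 and 1.86 against 0.4, 0.55 and 0.992 FPKM.

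Another set of 6 members shared only the terms spermatogenesis, integral component of membrane and cell differentiation. All 6 were tested, and all 6 had their lowest value in M replicate 1 (background 35.5%). Of these, 4 were called lower (background 5.25%), and the differences of the 6 lay between -1.25 and -0.92. The member listed under PTPDC1 (ENSBGRG00000016589) had FPKM values of 6.9, 5.73 and 6.47 against 1.51, 4.93 and 2.41, with no overlap. Those listed under PHF24 (ENSBGRG00000013989, 23, 17.2 and 22.4 against 4.9, 18.3 and 7.7 FPKM) and SMIM31 (ENSBGRG00000005839, 23.3, 12 and 20.2 against 4, 15.1 and 6.91 FPKM) overlapped through M replicate 2. The member listed under FAM240B (ENSBGRG00000012121) did not overlap, by 4.18 against 3.95 FPKM.

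ENSBGRG00000002678, listed under RIIAD1 and annotated as an ornithine decarboxylase inhibitor of polyamine synthesis, was at 138, 91.9 and 110 FPKM in the Y group and at 19.1, 62.9 and 69.1 FPKM in the M group (-1.35, SE 0.48, adjusted p = 0.168). Serine-type endopeptidase terms were held by ENSBGRG00000014396, listed under PRSS21, at 24.2, 23.1 and 21.2 against 4.23, 14.1 and 12 FPKM, and by ENSBGRG00000012942, listed under PRSS45P, at 29.1, 22.1 and 30.8 against 6.15, 21.9 and 12.7 FPKM. Both had groups apart, the second by a gap of 22.1 to 21.9 FPKM.

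Metalloendopeptidase terms were held by a pair listed under DEFB134. ENSBGRG00000010497, with integrin binding, was at 56.6, 46.5 and 49.8 against 10.7, 41.9 and 23.8 FPKM, and ENSBGRG00000010596 at 10.5, 9.42 and 9.25 against 1.94, 7.35 and 3.11 FPKM. Their differences were -1.20 and -1.43, and neither overlapped. A phosphatase of the meiotic cell cycle by its terms, ENSBGRG00000020597 under SAMD8, was at 14.7, 10.6 and 15.2 against 3.27, 10.4 and 5.12 FPKM. The kinases by terms were ENSBGRG00000014298 under MAK, with cilium and axoneme terms, at 25.9, 20.4 and 22 against 5.56, 17.7 and 12.4 FPKM, and ENSBGRG00000012461 under HGH1, whose values of 4.23, 1.35 and 1.53 against 0.291, 1.64 and 0.506 FPKM overlapped.

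Cytoskeletal terms marked a few more. ENSBGRG00000000912, listed under GRIN3A and annotated to the cytoskeletal calyx as calicin is, was at 9.32, 7.35 and 9.09 against 1.61, 5.31 and 4.4 FPKM (-1.32, SE 0.41). ENSBGRG00000023545 under MAP3K14, with actin binding, was at 9.03, 8.32 and 7 against 1.2, 3.43 and 5.56 FPKM. ENSBGRG00000006529 under PCDH17, with actin filament terms, had the most negative difference of all members, -1.95 (SE 0.47, adjusted p = 0.154), from 3.14, 0.962 and 2.24 to 0.355, 0.676 and 0.293 FPKM. Its level was low, and without M replicate 1 the difference was -1.86. It is also the single call in which M replicate 1 was not the lowest library.

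The remaining calls were spread over other terms. ENSBGRG00000019326 under NKAP, annotated to the sperm fibrous sheath and protein kinase A binding, was at 1.61, 1.61 and 2.23 against 0.493, 1.53 and 0.752 FPKM. ENSBGRG00000006682, listed under MYCBPAP, was at 8.51, 9.14 and 10.8 against 3.07, 7.09 and 4.23 FPKM, and ENSBGRG00000010464, listed under SPIN4 with nuclear matrix and ubiquitination terms, at 7.35, 10.4 and 11.6 against 1.4, 7.42 and 3.49 FPKM. Of these, the last overlapped, by M replicate 2.

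The members of smallest difference among those at 10 FPKM or more overlapped between the groups. TMEM203, a protein of calcium stores in the endoplasmic reticulum, was at 26.9, 28.5 and 29.5 FPKM in the Y group and at 22.4, 35.9 and 27.6 FPKM in the M group, a difference of -0.01 (SE 0.19). RNF114, a ubiquitin ligase, was at 39.7, 46.9 and 37.9 against 34.9, 44.3 and 41.7 FPKM (-0.04, SE 0.16), and ENSBGRG00000025115 under CCDC43, with meiosis terms, at 20.1, 21.6 and 22 against 17.3, 22.9 and 22.7 FPKM (-0.03, SE 0.16). In contrast, ENSBGRG00000020612, listed under KLHDC3, was the second most abundant member at 268, 229 and 251 against 110, 218 and 199 FPKM, with groups apart and a difference of -0.57 (SE 0.28, adjusted p = 0.248). ENSBGRG00000025739 under USP42, a deubiquitinase by its terms, overlapped with a difference of -0.23 (SE 0.17).

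By level, the members were called lower more often than all genes in each range, with no test of this. Of 69 members with a mean of 0.5 to 5 FPKM, 7 (10.1%) were called lower, against 4.04% of all genes of that level, and their median was -0.03 against 0.15. Of 53 members at 5 to 20 FPKM, 13 (24.5%) were called lower, against 5.04% of all genes there, with a median of -0.52 against -0.01. Of 48 members at 20 FPKM and over, 11 (22.9%) were called, against 11.5%, with a median of -0.48 against -0.25. Highly expressed genes in general thus also had lower values in the M group, and the medians of the members lay below those of all genes at each level.

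**Figure D5:**
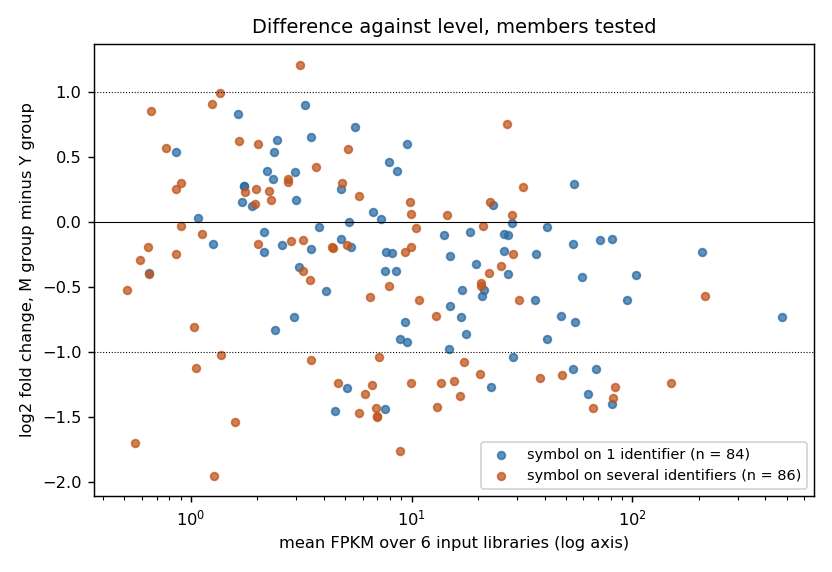
Log2 fold change, M group minus Y group, against mean FPKM over the 6 input libraries (log axis) for the 170 members tested, in blue where the symbol stands on 1 identifier (84) and in orange where it stands on several (86); dotted lines mark differences of 1. Below 5 FPKM the differences go both ways (median -0.03), and from 5 FPKM up most are negative.

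Of the 27 term genes that the rule left out and that could be tested, 5 (18.5%, background 5.25%) were called lower and 0 higher (background 4.01%) by limma. At an unadjusted p under 0.05, 7 were lower (25.9%, background 10.9%) and 3 higher (11.1%, background 14.2%), and their median was -0.30. By library their medians were -0.62, -0.03 and -0.01 in M replicates 1 to 3. No test of the difference between these genes and the members was made.

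By GO terms that the rule did not use, members with the term multicellular organism development had 15 of 39 tested called lower (38.5%), with a median of -0.73. Those with cell differentiation had 18 of 66 called lower (27.3%) and a median of -0.55, where 5.25% of all genes were called lower. Members with the term nucleus had 8 of 92 called lower (8.7%, background 5.25%) and 1 higher (1.09%, background 4.01%), with a median of -0.17. RNA binding members had a median of 0.10 over 10 tested, with 1 called higher (background 4.01%) and 0 called lower (background 5.25%) by limma. At an unadjusted p under 0.05 there was 1 in each direction, near the background (10.9% lower and 14.2% higher). A member can hold several of these terms.

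Differential m6A peaks between the ages were given for 8 members (3.88%), against 5.63% of all genes of the table. Among genes tested for expression the shares were 4.71% and 9.29%, and 3 of the 28 left-out term genes (10.7%) had one. The table holds neither a direction nor a p per peak, so a peak here says only that the comparison of the ages listed it. Positions are in the yak assembly LU_Bosgru_v3.0, and each member had 1 peak.

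Peaks in 2 genes belong to RNA metabolism itself. METTL14, a subunit of the m6A writer, had a peak at chr6:121542112-121551326, whose 9215 bp on the genome include introns and which was annotated to exon 10 of 11. Its messenger was at 2.18, 2.29 and 1.78 against 3.28, 2.27 and 2.45 FPKM, with overlap (0.33, SE 0.20). BTBD18, a regulator of the transcription of piRNA precursors in meiosis, had a peak of 348 bp at chr13:2216686-2217033 in exon 4 of 4, and its level was near even, at 1.93, 1.73 and 1.76 against 2.36, 1.54 and 2.09 FPKM.

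ATRX, a chromatin remodeller, had a peak of 201 bp at chrX:81110486-81110686 in exon 8 of 35, and its messenger was at 1.07, 1.21 and 1.11 against 2.78, 1.42 and 2.26 FPKM (0.83, SE 0.27, adjusted p = 0.157). The M values were all higher and wide apart. RAI14, an actin-bundling protein of the Sertoli cell and germ cell junction, had a peak of 150 bp at chr23:43587293-43587442 in exon 16 of 19. It was at 11.8, 11.1 and 10.9 against 3.51, 8.91 and 6.89 FPKM, so that ATRX and RAI14 differed in opposite directions (RAI14 -0.90, SE 0.32, adjusted p = 0.168).

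LGR4, a receptor for R-spondins, had a peak of 1370 bp at chr13:8872778-8874147 in exon 18 of 19 and was low, at 0.72, 0.823 and 0.522 against 0.91, 1.05 and 1.14 FPKM (0.54, SE 0.26, adjusted p = 0.239). BNC1, a zinc finger protein of spermatogonia, carried its peak of 150 bp in the 3′ UTR, at chr17:25835668-25835817, and was at 3.62, 3.73 and 3.94 against 2.74, 3.52 and 3.53 FPKM (-0.21, SE 0.16). Neither passed p of 0.05.

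The gene listed under PATZ1, given above with a difference of 0.99, had a peak of 448 bp at chr16:77830159-77830606 in exon 1 of 5, starting 298 bases from the transcription start. The gene listed under PPP6R2 (ENSBGRG00000003552, phosphatase terms) had one of 230 bp at chr5:129382621-129382850 in exon 14 of 19, with levels of 5.81, 4.46 and 5.77 against 8.23, 5.06 and 5.44 FPKM that overlapped. Of the 8 members with a peak, 3 had an unadjusted p under 0.05 in expression (ATRX and PATZ1 higher, RAI14 lower), where 25.1% of all genes did, so that this count is near the background. None of the 31 members called lower carried a peak, where 4.71% of the tested members and 9.29% of the tested genes did. The share among all genes called lower is not given here, and no conclusion is drawn from this count.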

How the data were processed

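The authors trimmed the reads (Trimmomatic), took out ribosomal sequence, mapped the rest to LU_Bosgru_v3.0 with HISAT2 and used unique alignments. FPKM per gene and input library were deposited by the authors; the program that computed them is not given in the sources used here, and fragments per gene are not in the table, so no counting interval was computed. Differential peaks were called by the authors with MeTDiff and annotated with ChIPseeker.

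Groups were taken from the titles. Log2(FPKM + 0.1) of the 12437 genes whose mean FPKM reached 0.5 was fitted with limma 3.58.1 (lmFit, eBayes with trend) in R 4.3.3, two-sided, with Benjamini-Hochberg adjustment. An exact permutation test of 3 against 3 cannot go below 0.1 and was not used. Python 3.11.15 with pandas 2.3.3 did the counting. Tested on simulated data of 12437 genes, 98.5% of planted falls of 2 on the log2 scale were called, 42.5% of falls of 1, and 0.409% of genes with no planted change. A planted fall of 1 equals the limit on size, which holds its share down at any number of animals. The simulated libraries were independent, with the same spread in both groups. In the real data the median coefficient of variation over all genes tested was 12.3% in the Y group and 23.1% in the M group, so these shares may not carry over.

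Members and lists were chosen with earlier results of these data known. Members were named if past both limits, among the 5 of highest mean FPKM, with a peak, among the 2 of smallest p in a role list, among the 5 of smallest p with all M values higher, or among the 3 of smallest difference at 10 FPKM or more. Same-numbered libraries were checked for pairing (correlations of deviations -0.0222, -0.0909 and 0.00668), and the numbers do not pair. Alternatives were another pseudocount, filter, scaling, variance model, fold limit, a replicate block, and leaving out each library. The immunoprecipitated libraries and the peak lists of single groups were not analysed here.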

Additional observations from a re-analysis of the deposited data

How the results depend on the processing

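The number of members called lower was 31 (background 5.25%) and moved with single libraries. When each was left out in turn it ran from 3 without M replicate 1 (background 1.32%) to 44 without M replicate 2 (background 8.98%). It was 12 without Y replicate 1 (background 3.08%) and 13 without Y replicate 3 (background 3.1%). It was 9 (10.7%) over members whose symbol stands on 1 identifier, an alternative chosen after seeing the data. The number called higher, 1 (background 4.01%), was 0 at a pseudocount of 1, 2 at 0.01 and 2 with no filter, 9 at a fold limit of 1.5, and 1 to 6 when a library was left out. In alternatives chosen after seeing the data it was 12 with no fold limit (background 14.2%) and 0 with a symbol on 1 identifier. Without M replicate 1 it was 1 (background 1.99%). For the other pseudocounts, filter, fold limit of 1.5 and left-out libraries no share of all genes is given here. Those counts therefore cannot be read against a background. Adjusted p under 0.05 was reached by 0 to 50 members, the 50 without M replicate 2 (background 20.3%). Members with all M values higher, 18 (10.6%, background 19.8%), numbered 19 to 35 when a library was left out, and the share of all genes in those settings is not given here. None of these results, and no member called in the comparison of all 6 libraries, changed direction under the settings tried. For the called members this is no independent check, since the settings reuse the libraries that gave the calls. Same-numbered libraries share only a number: with a replicate block 31 members were called lower, 29 of them among the 31 without it, and 1 higher. Those listed under SMIM31 and HGH1 lost their calls. The share of all genes called with the block is not given here, so the equal total has no background beside it. The cause of these shifts was not tested. With 3 simulated libraries per age, 42.5% of falls of 1 on the log2 scale were called, where the planted fall equals the limit on size.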
